A study of Mus musculus with 3 samples.

Results

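The 47 mouse zinc finger genes whose spans held AGO2 peaks in P19 cells, on either strand, were examined. P19 is a mouse embryonal carcinoma line, labelled as a stem cell line, and AGO2 is the Argonaute protein that holds a microRNA against its target RNA. In the 3 HITS-CLIP libraries of the study, RNA crosslinked to AGO2 was pulled down with 1 antibody clone, 2D4, and sequenced. All 3 libraries form 1 group with no control, treatment or second line, and the values are 4 peak lists of the series as a whole, made with the callers CIMS, Piranha, Pyicoclip and PIPE-CLIP. Since no list is split by library, neither a depth per library nor a spread between libraries can be given, and intervals below cover counting error only. The labels do not say whether the libraries came from separate cultures.

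The genes were chosen by their peaks: protein-coding genes with a symbol of Zfp and a digit, or Zbtb, were members if the midpoint of at least 1 peak of any list lay in the gene span, on either strand. Zbtb7a was left out. Of 437 such genes in the RefSeq table of GRCm38.p6, the assembly of mm10, 47 met the rule, which is 10.8%. Among all 21900 protein-coding genes the share was 9.77%. The rule itself sets the first number, so nothing is read from it. No gene of the family stood just outside the rule by position, since counting peaks that merely overlapped a span gave the same 47. On the score, 6 members had no peak above the floor of 10 that all 4 lists share.

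Most proteins of this family bind DNA through repeated C2H2 zinc fingers, small loops in which a pair of cysteines and a pair of histidines hold a zinc ion. Many Zfp proteins join their fingers to a KRAB domain, which recruits the co-repressor TRIM28, while the Zbtb proteins carry a BTB domain that pairs proteins and recruits co-repressors such as BCOR. In many C2H2 genes the fingers are encoded in a single long last exon. MicroRNAs guide AGO2 mostly to the 3′ untranslated regions of mRNAs, at the end of the transcript, and also to coding sequence. A few genes with Zfp symbols encode other kinds of proteins, and Zfp36 and Zfp36l2 encode RNA-binding proteins with CCCH fingers that bind AU-rich elements and speed mRNA decay.

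The 47 genes held 124 peaks. A cluster that lies in both Zfp174 and Zfp597 counts for each, which makes 125 pairs of a peak and a gene. The first gene lies on the plus strand and the second on the minus strand. PIPE-CLIP gave 90 of the 125, Pyicoclip 21, Piranha 13 and CIMS 1. The genes had a median of 2 peaks and a mean of 2.66, against 2 and 2.39 in the 2093 other protein-coding genes with a peak, and 20 of the 47 had a single peak. At least 3 peaks were held by 15 members, 31.9% (95% Wilson interval 20.4 to 46.2), against 24.6% of the other genes with a peak (22.8 to 26.5), so the intervals overlap. Over all protein-coding genes, with or without a peak, the share was 2.42%, and nothing is read from it because members were chosen for having a peak. Because a site seen by several callers counts several times, peaks that overlapped on either strand were also merged over the lists, which gave 98 sites and a median of 1 per gene. The exonic or intronic nature of a site is not given here, because the table holds gene spans without exons.

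**Figure D1:**
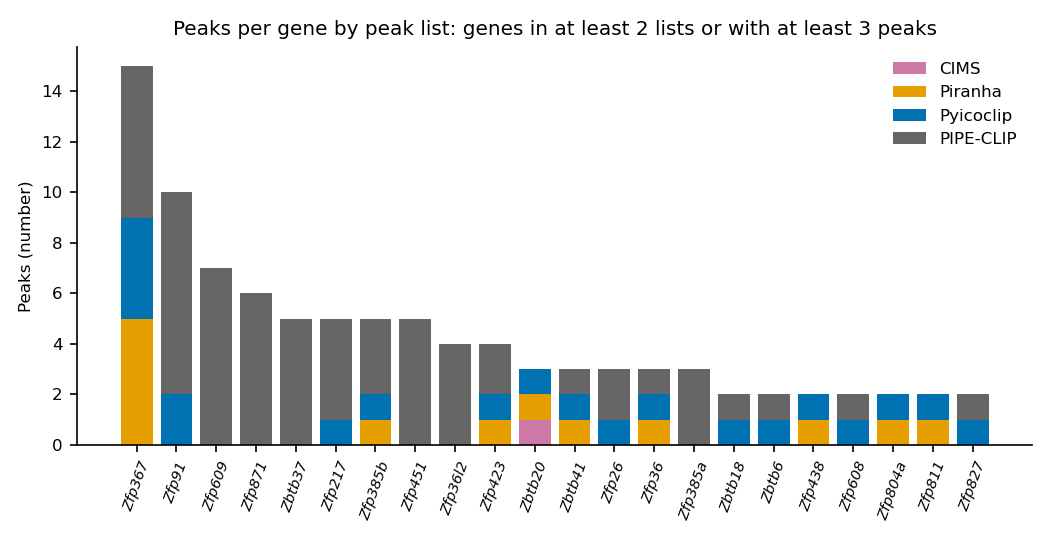
Number of peaks (y axis) in each of the 22 zinc finger genes with peaks in at least 2 lists or with at least 3 peaks (x axis), stacked by peak list. Zfp367 stands first with 15 peaks from 3 lists, Zfp91 follows with 10 from 2 lists, and the 7 peaks of Zfp609 and 6 of Zfp871 are from PIPE-CLIP alone.

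Peaks of more than 1 caller, not always at the same site, lay in 16 of the 47 genes, 34.0% (22.2 to 48.3). The share was 40.9% of the other genes with a peak (38.9 to 43.1), so the intervals overlap. Over all protein-coding genes, with or without a peak, 3.99% had peaks in at least 2 lists, 0.973% in at least 3 and 0.105% in all 4. Nothing is read from these shares, because members were chosen for having a peak. Among the members 6 had peaks in 3 lists, namely Zfp367, Zfp385b, Zfp423, Zbtb20, Zbtb41 and Zfp36. This is 12.8% (5.98 to 25.2), against 8.79% of the other genes with a peak (7.65 to 10.1), with intervals that overlap. Only in Zfp367 and Zbtb20 did 3 lists meet at the same site. No member had peaks in all 4 lists, and with 0 of 47 the limit of 3 counts of the total is 6.38%. Among the other genes with a peak the share in all 4 lists was 1.10% (0.733 to 1.64). Of the sites merged over the lists, 18 of 98 were seen by at least 2 lists, 18.4% (11.9 to 27.2), against 28.1% in the other genes (26.6 to 29.6), and these intervals overlap too. PIPE-CLIP peaks lay in 42 members, 89.4% (77.4 to 95.4), against 72.5% of the other genes with a peak (70.6 to 74.4). Pyicoclip peaks lay in 17 members, 36.2% (24.0 to 50.5), against 46.7% (44.6 to 48.9), and Piranha peaks in 9, 19.1% (10.4 to 32.5), against 29.8% (27.9 to 31.8). The members' share was thus higher for PIPE-CLIP, with intervals that do not meet, and lower for the other pair, with intervals that do, and none of these differences was tested. CIMS had a peak in 1 member and in 2.87% of the other genes with a peak. Over all protein-coding genes, with or without a peak, the shares were 7.12% for PIPE-CLIP, 4.54% for Pyicoclip, 2.89% for Piranha and 0.279% for CIMS. Nothing is read from these shares either, because members were chosen for having a peak. For 30 members PIPE-CLIP was the only list, 63.8% (49.5 to 76.0), beside 52.9% of the other genes with a peak (50.7 to 55.0). All 4 callers read the same libraries, so the lists are not replicates.

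Zfp367 carried the most peaks and the highest scores of the family. The score is the authors' own value of a peak, has no stated unit and serves here to rank the peaks of 1 list. The gene spans 64133022 to 64153199 on the minus strand of chromosome 13, and all 15 of its peaks lay on that strand within 1848 nt, between 64133569 and 64135416. They merged into 4 sites, and Piranha, Pyicoclip and PIPE-CLIP each had a peak at every one of them. From the gene end inwards the sites ran from 64133569 to 64133900, from 64134071 to 64134252, from 64134344 to 64134924 and from 64134965 to 64135416, so the gaps between them were short. The PIPE-CLIP clusters scored 78 at the site nearest the end, 29 at the next, 47, 49 and 16 at the third and 95 at the innermost site. A score of 95 is at or above that of 99.3% of PIPE-CLIP clusters. Pyicoclip gave 25, 17, 23 and 23 at the same 4 sites. The innermost site had its middle at about 89.5% of the span and the outermost at 96.4%, so 3 of these peaks fell just short of the last 10% of the span while the other 12 lay in it.

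Zfp91, which encodes an atypical E3 ubiquitin ligase with zinc fingers, had 10 peaks, all on the strand of the gene. Its span runs from 12766939 to 12796123 on the minus strand of chromosome 19. Pyicoclip and PIPE-CLIP met at a pair of adjacent sites, 12769135 to 12769410 and 12769469 to 12769796, with PIPE-CLIP scores of 75 and 40 and Pyicoclip scores of 15 and 14. At the first of these the intervals of both callers were identical. PIPE-CLIP alone added 6 weaker clusters with scores of 10 to 19, of which 4 lay near the same end and 2 were deep in the gene at 58.7% and 65.8% of the span. Every Zfp91 peak also lay in the span of the long non-coding RNA gene Gm44505, so the transcript of origin is uncertain.

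**Figure D2:**
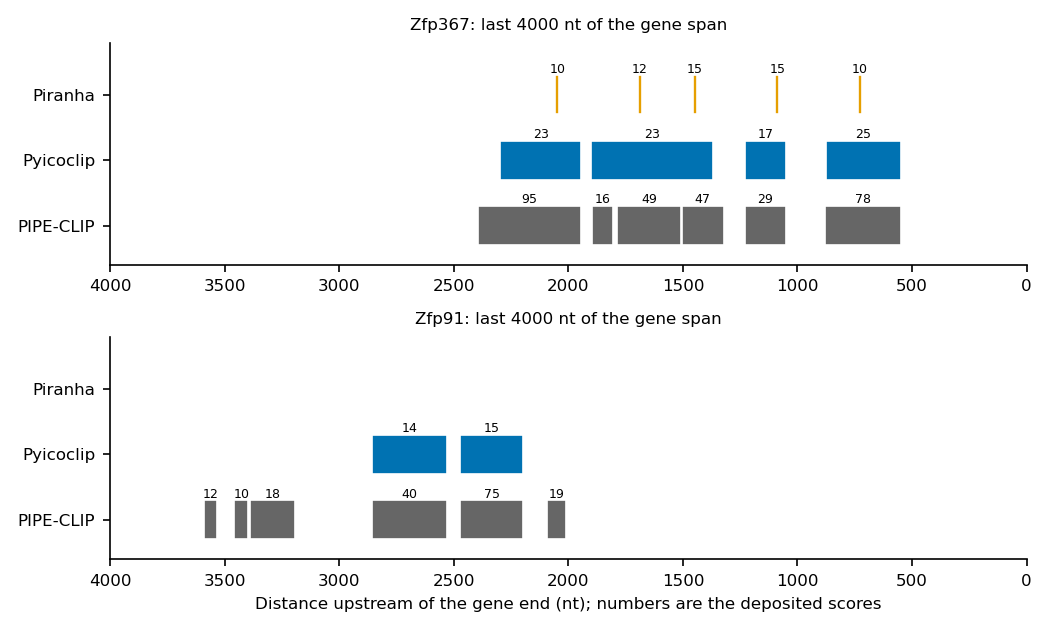
Peaks in the last 4000 nt of the spans of Zfp367 (top) and Zfp91 (bottom), by distance upstream of the gene end in nt (x axis) and peak list (y axis), each labelled with its deposited score. The 15 Zfp367 peaks of Piranha, Pyicoclip and PIPE-CLIP stack at 4 sites, and in Zfp91 Pyicoclip and PIPE-CLIP share a pair of sites while Piranha has none.

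Other sites in the last 20% of the span were shared by Pyicoclip and PIPE-CLIP. Zfp217, a transcriptional regulator found with the CtBP and CoREST co-repressors, had both callers at 170110461 to 170110604 on chromosome 2, at 95.6% of its span, with scores of 13 and 26. A pair of PIPE-CLIP clusters scoring 14 and 16 lay closer to its end and another, scoring 12, lay at 70.7%. Zfp827, known for recruiting the NuRD complex, had a shared site at 99.4% of the span, 79192656 to 79192755 on chromosome 8, with scores near the floor of the lists, 10 and 11. This site also lies in the long non-coding RNA gene Gm30271. In Zbtb6 the callers met at 37425897 to 37426164 on chromosome 2, at about 89.6% of the span, with a PIPE-CLIP score of 29 and a Pyicoclip peak of score 10 that has no strand. Zfp26 was shared at 20434105 to 20434191 on chromosome 9, at 81.7% of the span, with scores of 11 and 22. Together with both shared Zfp91 sites these make 6 sites of Pyicoclip and PIPE-CLIP without Piranha, 87 to 328 nt long, and all 6 lay between 81.7% and 99.4% of a span with none on the opposite strand.

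The sites that Piranha and Pyicoclip shared without PIPE-CLIP were placed differently. There were 8 of them, in Zbtb20, Zbtb41, Zfp36, Zfp385b, Zfp423, Zfp438, Zfp804a and Zfp811. In 7 of the 8, all except Zbtb41, the site was 24 to 41 nt long and lay outside the last 10% of the span. Zbtb20, a transcriptional repressor of the developing hippocampus and of the fetal programme in liver, was the only member with a CIMS peak. CIMS, Piranha and Pyicoclip each gave it a score of 15 at chromosome 16, 43449115 to 43449155, inside a span of 758704 nt and at 75.6% of it. Zfp804a, linked to psychiatric disease by human genetics, had its single site at 73.1% of the span, at 82203473 to 82203506 on chromosome 2, and Zfp811 at 35.7%. In Zfp385b the shared site, with scores of 10 in both lists, lay at 27.6%, far from the PIPE-CLIP cluster of score 21 at 99.8%, and 2 more PIPE-CLIP clusters lay between them. Zfp438 had its site at 10.1% when read along the strand of the peaks.

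Zfp423 and Zfp36 held peaks on both strands. Zfp423 encodes a many-fingered cofactor of EBF and of BMP-activated SMAD proteins. Its Piranha and Pyicoclip peaks, each with a score of 10, lay on the plus strand, opposite to the gene, at 7.3% of the span, and its PIPE-CLIP clusters lay on the gene strand at 13.2% and 60.4% with scores of 15 and 10. Zfp36, which encodes tristetraprolin, has a short span of 2445 nt on chromosome 7. A PIPE-CLIP cluster on the gene strand, 28378020 to 28378113, lay at 47.5% of this span and scored 37, at or above 95.7% of PIPE-CLIP clusters. The Piranha and Pyicoclip peaks, at 28379121 to 28379144, lay near the gene start on the opposite strand with scores of 11. Zfp36l2, of the same protein family, had 4 PIPE-CLIP clusters with scores of 12 to 17, all internal, at 26.9% to 66.0% of its span when read along the peak strand. The highest-scoring peaks of both CCCH genes lay inside the span rather than in its last 10%.

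Zbtb41 had a site of Piranha and Pyicoclip at 90.9% of the span, with scores of 13 and 15, and a PIPE-CLIP cluster of 13 near its start, at 6.6%. Zbtb18, a repressor needed in the development of cortical neurons, had a Pyicoclip peak without a strand at 58.9% and a PIPE-CLIP cluster at 74.1%, and these did not overlap. Zfp608 was also in 2 lists without a common site.

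**Figure D3:**
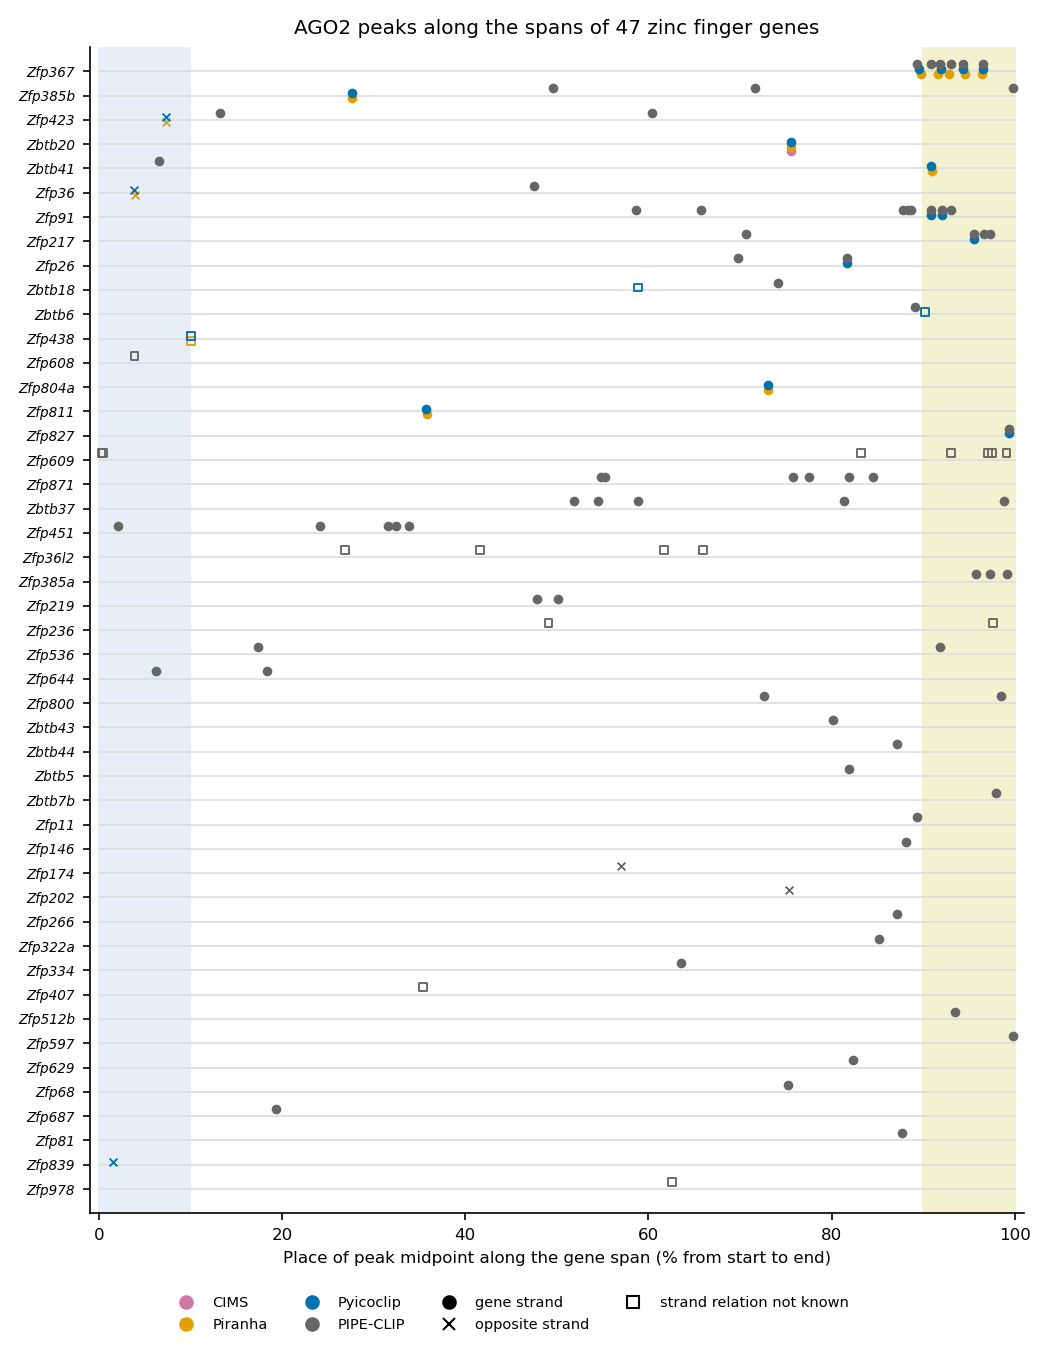
Place of peak midpoints along the span of the gene (x axis, in percent from the start to the end of the gene). Each zinc finger gene has 1 row, ordered by the number of lists and of peaks. Colours mark the 4 lists, filled circles peaks on the gene strand and crosses the opposite strand. Open squares stand where the strand of the gene or of the peak is not known. The Pyicoclip peak of Zfp608 has no place and is not drawn. The shaded bands are the first and last 10%. The peaks of Zfp367 crowd the right edge, most genes with 1 peak have it at 60% or later, and the crosses of Zfp36, Zfp423 and Zfp839 lie in the first 10%.

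For the place along the gene, each gene was counted at its highest-scoring peak, by percentile within the list. The direction came from the gene strand in the RefSeq promoter table for 40 members. For Zfp236, Zfp36l2, Zfp407, Zfp438, Zfp608, Zfp609 and Zfp978 it came from the strand of the peak. The last 10% of the span held this peak in 14 of 47 genes, 29.8% (18.7 to 44.0), and the first 10% in 2 genes, 4.26% (1.17 to 14.2), namely Zfp839 and Zfp608. The other 31 genes, 66.0% (51.7 to 77.8), had it inside the span. Antisense peaks were counted, and the only peak of Zfp839 is antisense. The Pyicoclip peak of Zfp608 has no strand and was given no place, so that gene rests on its PIPE-CLIP cluster. In the other protein-coding genes the shares were 36.8% (34.7 to 38.8) at the end, 11.1% (9.79 to 12.5) at the start and 52.2% (50.0 to 54.3) inside. Over all lists together, the intervals of members and other genes overlap for all 3 stretches. In PIPE-CLIP alone the internal share was 64.3% (49.17 to 77.0) against 46.6% (44.1 to 49.16), so the intervals just miss each other. For peaks over 30 nt it was 65.9% (51.1 to 78.1) against 47.2% (44.8 to 49.7). The order was reversed in Pyicoclip, 43.8% against 55.8%, in Piranha, 55.6% against 66.2%, and for narrower peaks, 50.0% against 66.2%. None of these differences was tested.

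Much of what counts as internal lay close to the end. Between 80% and 90% of the span stood the highest-scoring peak of 12 members, 25.5% (15.3 to 39.5), against 9.39% of the other genes (8.21 to 10.7). The 12 were Zfp367, Zbtb6 and Zfp26, described above, and Zbtb43, Zbtb44, Zbtb5, Zfp11, Zfp146, Zfp266, Zfp322a, Zfp629 and Zfp81, each with a single PIPE-CLIP cluster. This stretch of the span was singled out after its values were seen, and the difference was not tested. The highest-scoring peak of each of the 12 was a PIPE-CLIP cluster. Without PIPE-CLIP, 1 of 16 genes lay there, 6.25% (1.11 to 28.3), against 8.90% of the other genes. That interval also holds 25.5%, so these 16 genes cannot show whether the higher share depends on PIPE-CLIP. Over all peaks in place of 1 per gene, the share was 17.7% (12.0 to 25.4) against 10.6% (9.79 to 11.5). The spans also differed in length, with a median of 26192 nt in members and 48188 nt in the other genes with a peak, and the part of length in the placement was not tested. In nt, the median distance from the highest-scoring peak to the gene end was 3623 in members and 6814 in the other genes. Within 5000 nt of the end lay 57.4% of members (43.3 to 70.5) and 44.8% of other genes (42.6 to 46.9).

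**Figure D4:**
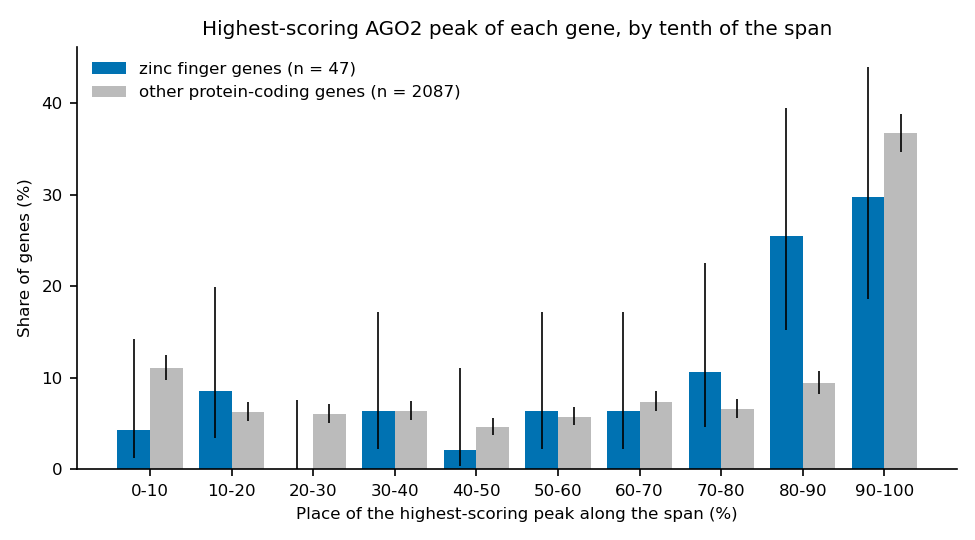
Share of genes (y axis, percent) whose highest-scoring peak lies in each stretch of 10% of the gene span (x axis, percent from start to end), for the 47 zinc finger genes (blue) and 2087 other protein-coding genes with a directed peak (grey), with 95% Wilson intervals as error bars. Between 80% and 90% the bars stand at 25.5% and 9.39% and their intervals do not meet, and in the last 10% they stand at 29.8% and 36.8% with overlapping intervals.

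Of the 9 genes with peaks of PIPE-CLIP alone and the best of them in the last 10%, Zfp385a had the highest score. It had 3 clusters at 95.8%, 97.3% and 99.1% of its span, scoring 25, 29 and 12, all within 1087 nt of the gene end. Zbtb37 had its best cluster, of 26, at 98.8%, and 4 weaker clusters of 10 to 15 at 51.9% to 81.4%. Zfp609, known as a partner of the cohesin loader NIPBL, had 7 clusters towards both ends, with 19 as the highest score at 99.1% and clusters of 13 and 15 within the first 1%. The others were Zfp236 at 97.6%, Zfp512b at 93.5%, Zfp536, a repressor of neuronal differentiation, at 91.8%, Zfp597 at 99.8%, Zfp800 at 98.5% and Zbtb7b at 97.9%. Zbtb7b encodes ThPOK, the factor that commits thymocytes to the CD4 lineage. The clusters of Zfp597 and Zfp512b also lay in the spans of other genes, Zfp174 and Uckl1os.

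A second cluster of Zfp800, also with a score of 11, was the only peak of the family that reached into a promoter window of the RefSeq table, which covers 250 bases before to 50 after an annotated start. It covered 28261814 to 28261919 on the minus strand, at 72.6% of the span, and 45 of its 106 nt lay in the window of an internal start. Those 45 nt fall in the part of the window after the start. For a transcript from that start, the cluster would thus lie near the beginning. It is shown because no other peak of these genes has its bases in the tables used here. The 30 of these bases nearest to the middle of the cluster, at chr6:28261875-28261904 of GRCm38.p6, are given 5′ to 3′ on the minus strand, and 23 of the 30 are C or T.

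Zfp800 cluster: ggagacttctctgcttcccccttcctaccc

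Internal sites of PIPE-CLIP alone, below 80% of the span, were the best peaks of 12 genes, with scores of 10 to 18. Zfp871 had 6 clusters, the most of these genes, in 2 groups at 54.8% to 55.3% and at 75.8% to 84.5% of its span, with scores of 10 to 13. Zfp451, which encodes a SUMO ligase, had 5, of which 3 stood between 31.6% and 33.9%, with scores of 10 to 17, and 1 near the start at 2.1%. Zfp219 had 2 clusters at 47.8% and 50.1%, scoring 11 and 16. Zfp644, a partner of the histone methyltransferases G9a and GLP, had both of its clusters early, at 6.3% and 18.4%, each with a score of 10. Zfp687 had its only cluster at 19.4%. Zfp36l2 is described above, and Zfp68, Zfp174, Zfp202, Zfp334, Zfp407 and Zfp978 had 1 cluster each, with scores of 10 to 18. Those of Zfp174 and Zfp202 lay on the strand opposite to the gene.

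Most peaks of PIPE-CLIP, Pyicoclip and Piranha scored under 20, in members and in the other genes. Among the family's PIPE-CLIP clusters 71 of 89 were under 20, 79.8% (70.3 to 86.8), against 79.9% in the other genes (78.4 to 81.3). In Pyicoclip 18 of 21 peaks were under 20, 85.7%, against 88.9%, and in Piranha all 13 were, against 94.6%. In 12 members at least 1 peak scored 20 or more, 25.5% (15.3 to 39.5), against 19.2% of the other genes with a peak (17.5 to 20.9). The median score percentile within the list was 48.1 for members and 54.2 for the other protein-coding genes. In each list the members had the lower median, with 43.7 against 58.4 in Piranha, 41.2 against 54.2 in Pyicoclip, 48.1 against 55.8 in PIPE-CLIP and a single CIMS peak at 32.5 against 46.2. The median scores themselves were 11 against 12 in Piranha, 11 against 12 in Pyicoclip, 13 against 14 in PIPE-CLIP and 15 against 22 in CIMS. Many peaks share a score, so a small step in score near the floor spans many percentiles. These differences were not tested.

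Read against the gene strand, the peaks lay almost all on the sense strand. Of 104 stranded peaks in genes of known strand, 97 lay on the gene strand, 93.3% (86.8 to 96.7), beside 83.4% in the other genes (82.2 to 84.5). For PIPE-CLIP it was 72 of 74, 97.3% (90.7 to 99.3), for Pyicoclip 14 of 17 and for Piranha 10 of 12. In the other genes the shares were 96.2%, 69.1% and 57.3%. The 7 antisense peaks were those of Zfp36 and Zfp423 above, a Pyicoclip peak of 27 nt in Zfp839 at 1.6% of the span, and the clusters in Zfp174 and Zfp202. Zfp839, Zfp174 and Zfp202 had no other peak, so none of their peaks lay on the gene strand. Peaks of at most 30 nt lay on the gene strand in 13 of 18 cases, 72.2% (49.1 to 87.5), and wider peaks in 84 of 86, 97.7% (91.9 to 99.4). The other genes showed the same order, with 54.9% of the narrow (51.8 to 58.0) and 93.5% of the wider peaks (92.5 to 94.3) on the gene strand. The gaps between members and other genes in Piranha and Pyicoclip rest on 12 and 17 peaks and were not tested. Peaks of the same gene or site were counted separately here. Zfp367 and Zfp91 gave 25 of the 104 peaks, all on the gene strand, and Zfp367 alone gave 5 of Piranha and 4 of Pyicoclip.

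Membership was uneven between the strands of the genome. Of the 187 family genes on the minus strand 31 had a peak, 16.6% (11.9 to 22.6), and of 179 on the plus strand 9 did, 5.03% (2.67 to 9.28). The other protein-coding genes gave nearly the same shares, 14.3% (13.6 to 15.1) and 5.19% (4.74 to 5.68). PIPE-CLIP clusters lay in 30 of the 31 minus-strand members and in 6 of the 9 on the plus strand, and 87.0% of all PIPE-CLIP clusters were on the minus strand. The other 3 lists, with 50.2% of Piranha, 48.5% of stranded Pyicoclip and 39.1% of CIMS peaks on the minus strand, had peaks in 9 minus-strand and 6 plus-strand members. Among the other protein-coding genes, these 3 lists had peaks in 386 on the minus strand and 393 on the plus strand. PIPE-CLIP had peaks in 1043 and 167 of them. Of the 40 members of known strand, 31 were thus on the minus strand, and whether plus-strand genes were bound less often was not tested.

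**Figure D5:**
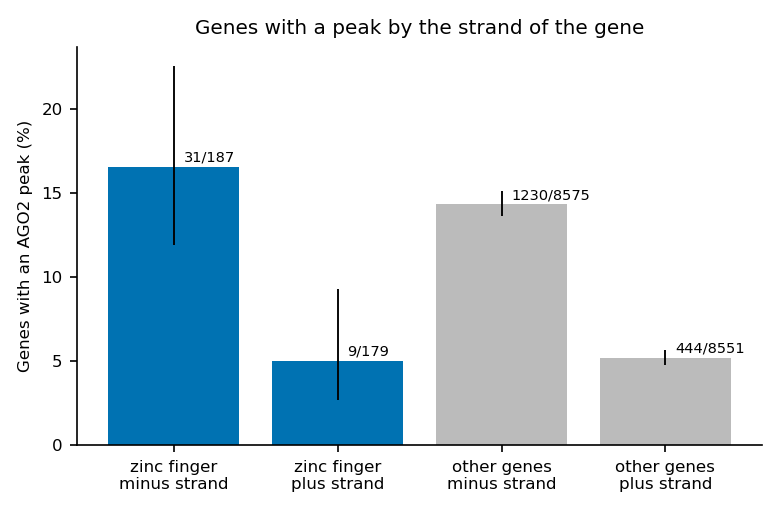
Share of genes with at least 1 AGO2 peak (y axis, percent) for zinc finger genes (blue) and other protein-coding genes (grey) on the minus and plus strands of the genome, with 95% Wilson intervals and the number of genes with a peak out of all genes of known strand above each bar. In both classes the minus-strand bar is the higher, at 16.6% against 5.03% and 14.3% against 5.19%.

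Within the family 9 of 40 Zbtb genes, 22.5% (12.3 to 37.5), and 38 of 397 Zfp genes, 9.57% (7.05 to 12.9), had a peak. The family genes without a peak had a median span of 17283 nt. The proteins that work with the family were looked up as well. Of 12 KRAB co-repressor genes 3 had a peak. These were Cbx5, the gene of the heterochromatin protein HP1 alpha, with 5 peaks in 2 lists, the maintenance DNA methyltransferase gene Dnmt1 with 1 and the de novo methyltransferase gene Dnmt3a with 2, and Trim28 had none. Among the BTB partner and co-repressor genes, Bcor had 6 peaks and the histone deacetylase gene Hdac2 had 2, both in at least 2 lists. Of 20 zinc finger factors with other symbols 7 had one, with 9 peaks in the helicase gene Znfx1 and 2 in Klf4, and Zeb1, Zeb2, Zfx, Zfhx3 and Rest as the others. The share over all protein-coding genes is again 9.77%, and none of these lists was tested. Among 10 marker genes of pluripotent cells, Pou5f1, Lin28a and Klf4 had a peak, and Zfp42, the family member in that list, had none. A peak reports RNA recovered with AGO2 and needs the RNA to be present. With no control library, binding at a single peak cannot be told apart from background. RNA levels were not used here, so a gene without a peak cannot be told apart from a gene that is not expressed, and the labelled cell type cannot be checked from these lists.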

How the data were processed

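RNA bound by AGO2 was profiled by HITS-CLIP in 3 libraries of P19 cells. Reads were handled with cutadapt and Novoalign on build mm10, per the submitters' processing notes. Not given in the sources used here are versions, caller settings, the treatment of reads that map to several places and how libraries were pooled, and near-identical copies of zinc finger genes make single placements uncertain. The authors deposited 4 peak lists with a score per peak, of 169 (CIMS), 1417 (Piranha), 2068 (Pyicoclip) and 3257 (PIPE-CLIP) peaks. The lowest score was 10 in each, and peaks below it were not analysed here.

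Peak midpoints were assigned to RefSeq gene spans (GRCm38.p6), and gene strands were taken from the RefSeq promoter table, which held 366 of the 437 family genes. There, 1911 pairs of overlapping windows of opposite strand were reverse complements where they met and 0 were not. Place was read from 0% at the start to 100% at the end of the span. Ties between highest-scoring peaks went to CIMS, Piranha, Pyicoclip and PIPE-CLIP in that order. Ties within a list went to the lower start coordinate, which is nearer the gene end on the minus strand. By this rule Zfp800 was counted at 98.5% rather than 72.6% of the span, and Zfp644 at 18.4% rather than 6.3%. Sites were peaks overlapping by at least 1 nt, merged over lists with strand ignored. Percentiles are shares of a list at or below a score. Shares have 95% Wilson intervals, and no p-value was computed. For shares of peaks or sites, the intervals treat those of 1 gene as separate counts. Protein features were planned and not run, since no protein table was used here.

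The members and gene lists were chosen with earlier results of these data known. The count over the BTB partner list is not reported here. Named were all genes in at least 2 lists or with at least 3 peaks, the others in groups by caller and place, the 5 highest-scoring peaks and the 3 genes with most peaks in each part of the span. Of 1000 peaks planted at known places and strands in 366 genes, 1000 were read back. Python 3.11.15, numpy 2.4.6, pandas 2.3.3 and matplotlib 3.10.9 were used.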

Additional observations from a re-analysis of the deposited data

How the results depend on the processing

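Each count or share was recomputed with 1 choice changed, and 49 of 64 alternatives stayed within 1.5 times the count or median, or inside the Wilson interval of the share. Without PIPE-CLIP, 17 genes had a peak, 9 of them in at least 2 lists, the internal share was 43.8%, the share between 80% and 90% of the span was 6.25% and the share of peaks on the gene strand was 83.3%. Without Pyicoclip, 6 genes were in at least 2 lists, 6 sites were shared (18 with all lists) and the median was 1 peak per gene. Without Piranha, 11 sites were shared. With a score of at least 20, 12 genes had a peak and 1 was in at least 2 lists. With peaks on the gene strand only, which leaves out genes without a known strand, 37 genes had a peak and 10 were in at least 2 lists. Merged into sites, the median was 1 per gene. With the outer 20% in place of 10%, the last part held 55.3% of genes and the inner part 31.9%. The counts without a list or with a stricter score rest on fewer peaks by construction, and the cause of the changed shares was not tested. The alternatives for the share between 80% and 90%, and those with genes of known strand only, were chosen after seeing the data.

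The score floor of 10, the few peaks per gene and the absence of values per library set the precision. Leaving out a library was not done, since the lists are not split by library, and no paired analysis was possible because all samples form 1 group and the lists carry no replicate numbers.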

Other observations

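Several members are neighbours or close relatives, which were picked out after their values were seen. Zfp871 and Zfp811 lie next to each other on chromosome 17, at 32765496 to 32788287 and 32795676 to 32810057. Zfp871 had 6 PIPE-CLIP clusters and no other peak, and Zfp811 had the Piranha and Pyicoclip pair and no PIPE-CLIP cluster. On chromosome 9, Zfp26 and Zfp266, at 20428318 to 20460169 and 20495068 to 20521419, had their highest-scoring clusters at 81.7% and 87.1% of the span. The relatives Zfp385a and Zfp385b both had a PIPE-CLIP cluster in the last part of the span, with scores of 29 at 97.3% and 21 at 99.8%, and Zfp385b alone had internal peaks.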
